A study of Mus musculus with 16 samples.

Results

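For each gene, the change that went with a hairpin against Ankrd35 in cells suspended in methylcellulose was set against the change that went with the same hairpin in cells growing as a monolayer. The quantity was the difference between those changes, methylcellulose minus monolayer, on the log2 scale of CPM, the reads of a gene scaled to the size of its library, and every gene was described by which of the 4 groups of libraries set it. All 16 of the 16 libraries of the series entered, 4 in each group, and 12320 of the 12321 genes in the table were tested. The cells were LKR10, a line from a mouse lung adenocarcinoma, transduced with a pLKO lentivirus and kept in puromycin at 4 µg/ml for 48 h, then grown for another 96 h before RNA was taken. The virus carried a short hairpin RNA (shRNA) against Ankrd35 or, as the control, against GFP, which mouse cells lack, so all 4 groups had been infected and selected. Monolayer cells (2D) were in DMEM with 10% serum, and suspended cells (3D) in 0.5% methylcellulose in complete DMEM under ultra-low-attachment conditions. The labels do not say how many hairpin sequences were used per target, and name 1 cell line. Whether the 4 replicates of a group came from different cultures is not said, so a p-value here reflects library-to-library spread that may be technical.

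A gene can have a non-zero difference in several ways. Its RNA can respond to the hairpin in the monolayer alone, in methylcellulose alone, in both to unequal extents, or in opposite directions. Since the difference is built from 4 group means, a single group that lies apart from the other 3 is enough to produce it. Methylcellulose keeps cells from attaching to a surface, and cells that detach lose signals from integrins and often change their metabolism and growth. Several of the gene groups described below have well-known triggers. ATF4 is a transcription factor made when amino acids run short or unfolded proteins collect in the endoplasmic reticulum (ER), and it switches on amino acid transporters and synthesis enzymes. Genes of cholesterol synthesis are switched on by SREBP2 when membranes hold little sterol. Immediate early genes and NF-kB targets answer growth factor and inflammatory signals within minutes to hours.

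The libraries held 13.82 to 28.72 M reads assigned to genes. The median within-group SD of a gene on the log2 scale was 0.0703 in 3D shGFP, 0.0965 in 3D shAnkrd35, 0.105 in 2D shGFP and 0.143 in 2D shAnkrd35, so the monolayer groups were the less precise. Replicate 1 of 2D shAnkrd35 stood apart. It had 2109 CPM of Gm23935, where its group otherwise reached 313 CPM, and 1418 CPM of Lars2, where its group otherwise reached 259 CPM. The slope of log2 level on the GC content of genes, per 10 percentage points, was 0.278 to 0.573 in 2D shAnkrd35, -0.106 to 0.314 in 2D shGFP, -0.319 to -0.250 in 3D shGFP and -0.292 to -0.136 in 3D shAnkrd35. The difference itself followed GC content (Spearman's rho -0.30) and exonic length (0.37) across 12217 genes, which are not independent replicates. For the hairpin effect, rho with GC content was 0.40 in 2D and 0.21 in 3D, and with exonic length -0.32 and 0.036. Of 6 epithelial markers all were in the table, with Krt8, Krt18, Krt19 and Cdh1 at means of 3446, 2165, 520.3 and 494 CPM but Epcam and Krt7 at only 1.19 and 1.59 CPM. None of 5 lung epithelial markers (Nkx2-1, Sftpc, Sftpb, Scgb1a1, Napsa) was among the genes analysed. The table had been filtered before deposit, because each gene but Ankrd35 had at least 1 CPM, with the authors' prior included, in 8 or more libraries. A gene present in a single group of 4 libraries would not have passed such a filter, so genes confined to 1 group are not analysed here. The deposited values include a prior of 2 reads on average, so folds of scarce genes are understated.

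Ankrd35 was too scarce to check the labels. It had 1 to 7 reads in each 2D library and 9 to 17 in each 3D library. With shAnkrd35 and with shGFP its level was 0.187 ± 0.137 and 0.219 ± 0.124 CPM in 2D (SD, n = 4, two-sided exact permutation p = 0.657), and 0.501 ± 0.0929 and 0.597 ± 0.0546 CPM in 3D (SD, n = 4, exact permutation p = 0.143, where the smallest possible is 0.0286). Fitted without the filter, its difference was -0.017 ± 0.53 (SE, limma adjusted p = 0.984). Every direction given for the hairpin therefore rests on the labels.

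Of the 12320 genes, 2110 had a higher difference and 2297 a lower one (limma adjusted p under 0.05), which is 17.1% and 18.6% of those tested, or 35.8% in all. In 317 of the higher and 150 of the lower genes the difference was at least 2-fold. A higher difference means that the hairpin effect was more positive in methylcellulose than in the monolayer, and this happened in more than 1 way. The hairpin effect was called in 2D but not in 3D for 2671 of the 4407 genes, and in 3D but not in 2D for 652. It was called in both with the same sign for 545 genes, being larger in 2D in 428 and larger in 3D in 117, and in both with opposite signs for 354. For the remaining 185 neither effect was called on its own. Over all genes tested, the hairpin effect was called for 57.9% in 2D and for 29.7% in 3D, and the effect of growth type for 67.2% with shGFP and 70.4% with shAnkrd35. Without both 2D libraries numbered 1, which include the one that stands apart, 3358 genes were higher and 2995 lower, and 2067 and 2234 of them were among those first called. After removal of trends with GC content and exonic length, 2119 genes were higher and 2480 lower. Of those, only 1645 and 1779 were among the 2110 and 2297 first called.

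**Figure D1:**
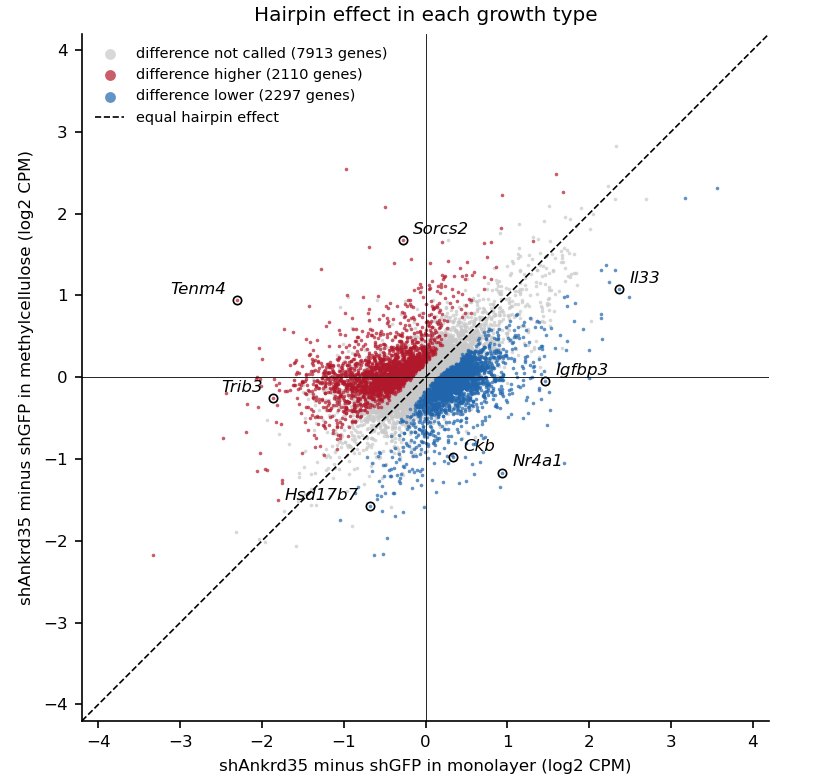
Each point is 1 of 12320 genes, placed by its hairpin effect (shAnkrd35 minus shGFP, log2 CPM) in monolayer on the x axis and in methylcellulose on the y axis. Red marks the 2110 genes with a higher difference, blue the 2297 with a lower one and grey the rest. The cloud is wider along the x axis, and 2671 of the 4407 called genes had a hairpin effect called in monolayer alone.

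A group was said to set the difference of a gene when its mean log2 level was the highest or lowest of the 4 and its gap to the nearest other mean was larger than the whole range of the other 3. By this rule 2760 of the 4407 genes had a setting group, which is 22.4% of all genes tested. The monolayer groups set 2198 of them and the methylcellulose groups 562. In the monolayer, 646 genes were low in shAnkrd35, 577 low in shGFP, 547 high in shAnkrd35 and 428 high in shGFP. Which of these classes held the most genes changed with the processing, since one other than the genes low in 2D shAnkrd35 did so under 13 of 30 alternatives. In methylcellulose, 167 genes were high in shGFP, 153 low in shGFP, 156 low in shAnkrd35 and 86 high in shAnkrd35. Over all tested genes, called or not, 23.8% had a setting group whose 4 libraries lay wholly outside the range of the other 12. No single group set the remaining 1647 called genes. For 708 of those the widest gap between sorted means lay between the growth types (390 with 2D above 3D and 318 with 3D above 2D). For 94 it lay between the hairpins, for 178 between crossed pairs of groups, and for 667 between 1 group and the other 3 but too narrow for the rule. Under a stricter gap of 2 times the range, each of the 8 classes was smaller, from 294 genes high in 2D shAnkrd35 to 34 high in 3D shAnkrd35, and 3104 genes had no setting group.

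**Figure D2:**
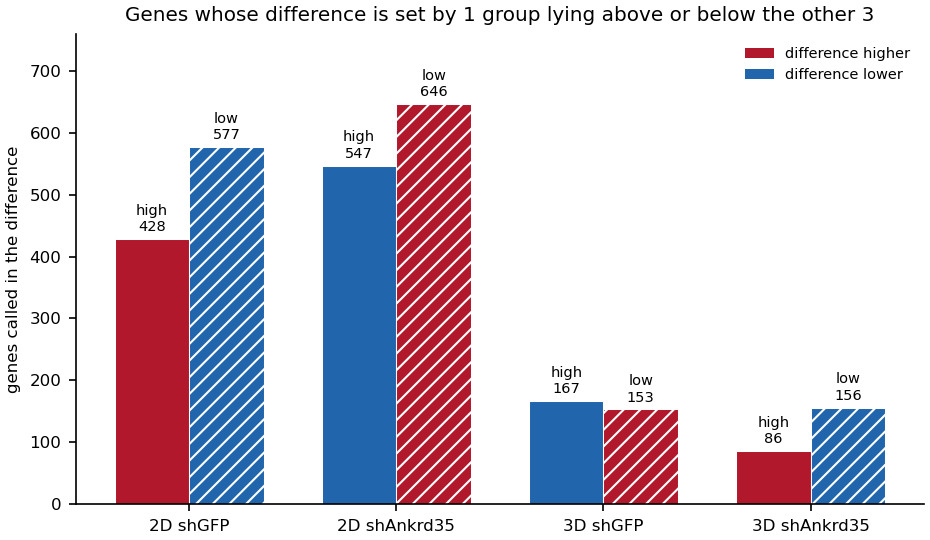
Bars give the number of genes called in the difference (y axis) that each of the 4 groups (x axis) sets by lying above (plain) or below (hatched) the other 3 groups. Red bars are genes with a higher difference and blue bars genes with a lower one. The 4 bars of the monolayer groups run from 428 to 646 genes and those of the methylcellulose groups from 86 to 167.

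Among the 428 genes set by a high level in 2D shGFP (3.47% of tested genes), control cells in monolayer had more of the RNA than any other group. The hairpin effect was called in 2D for all 428 and in 3D for 90. For 369 of them all 4 libraries of 2D shGFP lay outside the range of the other 12. Here and in the classes below, genes were selected by the gap of the setting group. A called hairpin effect in that growth type, and libraries apart from the other 12, therefore follow largely from the rule. The gene Ddit3 (chromosome 10, 127290774 to 127296288, plus strand, build mm10 here and below) encodes CHOP, a transcription factor of the ER stress and amino acid responses. Its level in replicates 1 to 4, the order kept throughout, was 79.1, 79.6, 78.8 and 69.3 CPM in 2D shGFP and 19.6, 29.5, 27.6 and 26.3 CPM in 2D shAnkrd35. In methylcellulose it was 11.9, 13, 11.7 and 10.9 CPM with shGFP and 12.5, 13.1, 12.3 and 11 CPM with shAnkrd35. The monolayer groups did not overlap and the methylcellulose groups did. The hairpin effect was -1.59 ± 0.10 in 2D and 0.039 ± 0.10 in 3D (log2, SE), a difference of 1.62 ± 0.14 (limma adjusted p = 8.47e-07). Gadd45a (chromosome 6, 67035096 to 67037457, minus strand), a growth arrest gene induced by stress and DNA damage, had 28.1, 35.9, 28.9 and 25.7 CPM in 2D shGFP, 9.34, 10.8, 11.4 and 13.6 CPM in 2D shAnkrd35 and 3.97 to 6.96 CPM over the 8 methylcellulose libraries. For both genes the hairpin effect was called in 2D and not in 3D. For Gadd45a the difference was 1.61 ± 0.22 (adjusted p = 5.11e-05).

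Paqr3, whose product holds RAF kinases at the Golgi, showed the same order, with group means of 19.5 ± 1.88, 6.49 ± 0.567, 2.53 ± 0.147 and 2.66 ± 0.25 CPM in 2D shGFP, 2D shAnkrd35, 3D shGFP and 3D shAnkrd35 (SD, n = 4). Its difference was 1.64 ± 0.14 (adjusted p = 7.35e-07). Pkhd1l1, a relative of the polycystic kidney protein fibrocystin, differed in that 2D shAnkrd35 was the lowest group, at 4.6 ± 1.02 CPM against 16.7 ± 2.28 in 2D shGFP, 7.66 ± 0.698 in 3D shGFP and 7.55 ± 1.05 in 3D shAnkrd35. So methylcellulose lowered Pkhd1l1 with shGFP (log2 -1.11) and raised it with shAnkrd35 (0.72). Its difference of 1.83 ± 0.21 (adjusted p = 7.88e-06) was the largest of this class, leaving out genes below 5 CPM on average.

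The ATF4 and amino acid response list held 40 genes, of which 39 were tested. Of these, 29 were higher in the difference and 2 lower, or 74.4% and 5.13%, against 17.1% and 18.6% of all genes. The median difference was 0.63, against 0.0029 over all genes tested, and it was built from a median hairpin effect of -0.83 in 2D and -0.066 in 3D. The hairpin effect was called lower for 34 members in 2D and for 12 in 3D, and higher for 2 and 9. Over all genes tested, the effect was called lower for 28.8% in 2D and 14.6% in 3D, and higher for 29% and 15%. The summed level of the list was 9424 to 10078 CPM in 2D shGFP, 5939.6 to 6397 CPM in 2D shAnkrd35, 2879 to 2955 CPM in 3D shGFP and 2999 to 3037 CPM in 3D shAnkrd35. So the sum was lower in 2D with the hairpin, still above that in methylcellulose, and nearly level there between hairpins. Of the 31 called members 23 had no single setting group, and in 15 of those the widest gap put 2D above 3D. The list was chosen with results of these libraries known, so its direction is not independent evidence.

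Trib3 (chromosome 2, 152337422 to 152344032, minus strand), a pseudokinase induced by ATF4 and CHOP, had 297, 268, 295 and 275 CPM in 2D shGFP and 77.2, 89.2, 73.5 and 73.2 CPM in 2D shAnkrd35. In methylcellulose it had 7.65, 8.07, 7.29 and 7.66 CPM with shGFP and 6.24, 6.06, 7.02 and 6.44 CPM with shAnkrd35. All 4 groups were separate, and the hairpin lowered Trib3 in both (log2 effects of -1.86 ± 0.067 in 2D and -0.25 ± 0.067 in 3D), a difference of 1.61 ± 0.095 (adjusted p = 1.19e-08). Slc7a5 (chromosome 8, 121881150 to 121907694, minus strand), the light chain of a leucine transporter, went from 979 ± 72.3 to 323 ± 42.5 CPM in 2D and from 108 ± 4.61 to 106 ± 3.54 CPM in 3D (SD, n = 4), a difference of 1.57 ± 0.11 (adjusted p = 5.39e-08). The lipoprotein receptor gene Vldlr went from 139 ± 11.4 to 48.3 ± 5.24 CPM in 2D and from 20.1 ± 0.832 to 18.9 ± 1.17 CPM in 3D, a difference of 1.44 ± 0.11 (adjusted p = 1.27e-07). In Slc7a5 and Vldlr the 3D groups overlapped, so the hairpin effect was seen in monolayer alone. The glutamine transporter Slc1a5 went from 147 ± 3.74 to 95.8 ± 3.42 CPM in 2D but from 49 ± 1.003 to 53.4 ± 1.4 CPM in 3D, with effects of -0.61 ± 0.039 and 0.12 ± 0.039 that were both called and opposite.

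Among the other members called higher were the cystine transporter Slc7a11 (1.53), the glycine transporter Slc6a9 (1.31), the alanine transaminase Gpt2 (1.21), the neutral amino acid transporter Slc1a4 (1.16), asparagine synthetase Asns (1.03) and the proline enzyme Pycr1 (0.87). Atf4 itself had a difference of 0.74 ± 0.099 (adjusted p = 4.78e-05). The 2 lower members were cystathionine beta-synthase Cbs (-0.94) and the secreted glycoprotein Stc2 (-0.84). Cbs had 4.84 ± 0.738 and 8.2 ± 0.87 CPM in 2D and 9.25 ± 0.55 and 8.14 ± 0.359 CPM in 3D, so it rose with the hairpin in the monolayer, while Stc2 fell with it in both and more in 3D (-0.35 and -1.19). Of the other stress genes of the list, Atf3 (0.26), Gdf15 (-0.11), Ddit4 (-0.13) and Cebpb (-0.22) were not called.

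**Figure D3:**
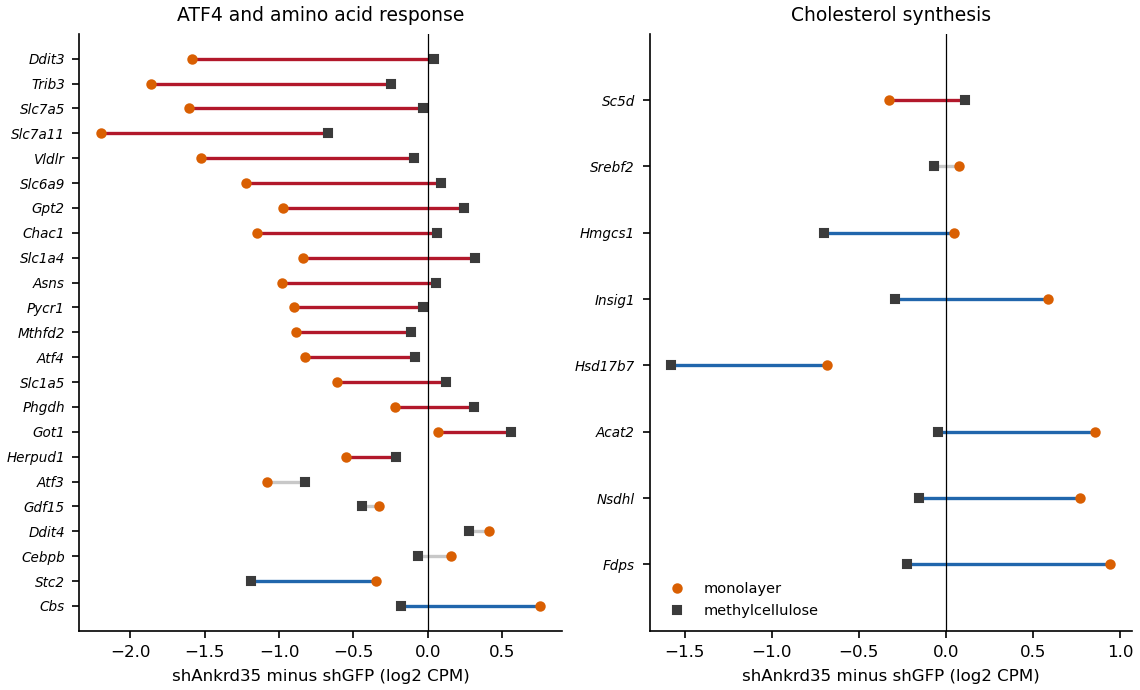
For the members named in the text, 23 of the 39 tested on the ATF4 list (left) and 8 of the 24 tested on the cholesterol synthesis list (right), the hairpin effect (x axis, log2 CPM) is drawn in monolayer (orange circle) and in methylcellulose (dark square). A red line joins them where the difference was called higher (17 and 1 of those drawn), a blue line where it was called lower (2 and 6) and a grey line where it was not called (4 and 1). Most ATF4 members drawn have the circle well below 0, and 7 of the 8 cholesterol members drawn have the square below 0.

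ATF4 pairs with C/EBP proteins on a composite element, searched here as TGATGNAA on both strands of RefSeq promoters (GRCm38.p6, the same build as mm10; 250 bases before to 50 after each start). Of the 39 tested members 33 had a promoter in the table, and 11 of these held the element (33.3%), against 3.97% of all 32851 promoters and 2.61% of the 9308 tested genes with one. It lay in 9 of the 26 matched members called higher (Asns, Chac1, Got1, Herpud1, Pycr1, Slc1a4, Slc7a11, Trib3 and Vldlr) and in 0 of the 2 called lower. The stretches below are 5 of those 9, chosen because they lie outside annotated exons. They are given 5′ to 3′ on the strand of the gene, with the element in capitals; where it lies on the other strand the capitals are its reverse complement.
Chac1 (chr2:119351013-119351092, plus strand): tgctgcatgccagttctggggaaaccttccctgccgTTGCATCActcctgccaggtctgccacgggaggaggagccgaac
Slc7a11 (chr3:50443617-50443715, minus strand): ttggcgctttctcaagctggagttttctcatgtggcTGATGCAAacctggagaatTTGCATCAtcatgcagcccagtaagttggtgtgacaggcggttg
Pycr1 (chr11:120643808-120643887, minus strand): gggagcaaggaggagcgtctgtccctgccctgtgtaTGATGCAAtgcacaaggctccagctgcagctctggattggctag
Got1 (chr19:43524664-43524743, minus strand): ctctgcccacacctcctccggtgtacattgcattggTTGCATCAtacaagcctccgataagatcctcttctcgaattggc
Herpud1 (chr8:94386281-94386360, plus strand): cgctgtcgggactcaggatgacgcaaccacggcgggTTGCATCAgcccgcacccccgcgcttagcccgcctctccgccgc
Slc7a11 holds the element in each orientation. The difference was 1.21 ± 0.19 for Chac1, a glutathione-degrading enzyme, 1.53 ± 0.25 for Slc7a11, 0.87 ± 0.13 for Pycr1, 0.49 ± 0.055 for the aspartate transaminase Got1 and 0.34 ± 0.066 for the ER protein Herpud1. Of these, Got1 was the exception in its pattern, with an effect called in 3D (0.56) and not in 2D (0.07). A match describes these letters only and is no evidence that a protein binds there.

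ER chaperones and genes of the unfolded protein response had 12 of 23 tested members higher and 2 lower (52.2% and 8.7%), with a median difference of 0.37 from hairpin effects of -0.49 in 2D and -0.11 in 3D. A high level in 2D shGFP set 8 of the called members, a low level there 2, and a low level in 2D shAnkrd35 set 3. Hspa5 (chromosome 2, 34771970 to 34777547, plus strand), the main ER chaperone BiP, had 645, 732, 686 and 681 CPM in 2D shGFP and 405, 358, 377 and 403 CPM in 2D shAnkrd35. In methylcellulose the values were 496, 490.3, 515 and 539.7 CPM with shGFP and 426, 415, 426 and 448 CPM with shAnkrd35. The hairpin lowered it in both (log2 effects of -0.83 ± 0.051 in 2D and -0.25 ± 0.051 in 3D), and the difference was 0.58 ± 0.072 (adjusted p = 2.13e-05). The ER stress sensor Ern1 (0.62 ± 0.076), the degradation adaptor Sel1l (0.55 ± 0.093) and the transcription factor Xbp1 (0.37 ± 0.068) each fell with the hairpin in both growth types and more in 2D. The lectin chaperone Calr (-0.38) and the ubiquitin ligase Syvn1 (-0.23) were lower. Disulfide isomerases were divided, with Pdia4 higher (0.41) and Pdia3 (-0.11) and Pdia6 (-0.13) not called.

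Extracellular matrix and basement membrane genes had 15 of 33 tested members higher and 3 lower (45.5% and 9.09%), and the median difference was 0.35. Hairpin effects had medians of -0.57 in 2D and -0.27 in 3D. The higher members included the laminin chains Lama5, Lamb1, Lamb2, Lamb3 and Lamc1 and the basement membrane proteins Nid1, Hspg2, Agrn, Col4a1 and Col4a2. Hspg2 (chromosome 4, 137468769 to 137570630, plus strand), which encodes perlecan, went from 1404 ± 116 to 615 ± 59.6 CPM in 2D and from 659 ± 42.4 to 537 ± 16.2 CPM in 3D, a difference of 0.90 ± 0.097 (adjusted p = 5.67e-06). Lamc1, the gamma chain of most laminins, was also high in 2D shGFP (551 ± 34.1, 304 ± 30.9, 342 ± 20.6 and 327 ± 12.9 CPM, difference 0.80 ± 0.093). Lamb3 (chromosome 1, 193207699 to 193343878, plus strand), a chain of the epithelial laminin that anchors hemidesmosomes, was set by 2D shAnkrd35 instead. It had 33.7, 31.8, 36.8 and 34.1 CPM in 2D shGFP, 19.9, 18.1, 18.6 and 18 CPM in 2D shAnkrd35, 33.6, 34.8, 38 and 36.3 CPM in 3D shGFP and 46, 40.8, 43.1 and 42.4 CPM in 3D shAnkrd35. It fell with the hairpin in 2D (-0.87 ± 0.059) and rose with it in 3D (0.27 ± 0.059), a difference of 1.14 ± 0.083 (adjusted p = 1.12e-07). The collagen IV chain Col4a2 had a smaller difference of the same kind (0.59 ± 0.063, effects -0.47 and 0.12). Smoc2 (-1.54), Thbs1 (-0.64) and Col6a2 (-0.26) were lower.

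Of 13 fibroblast markers, 5 of them also in the matrix list, 7 were tested, with 1 higher (Col6a3, 1.73) and 1 lower (Pdgfrb, -0.55). These shares, 14.3% each, were near the 17.1% and 18.6% of all genes. The summed level of the 7 was 39 to 44.4 CPM in 2D shGFP, 22.1 to 23.5 CPM in 2D shAnkrd35, 34.8 to 39.4 CPM in 3D shGFP and 16.2 to 51.4 CPM in 3D shAnkrd35. Col1a1 was at 2.36, 2.14, 22.7 and 4.73 CPM within 3D shAnkrd35, with replicate 3 far above the rest, and its difference of 1.54 ± 0.77 was not called (adjusted p = 0.131). Dcn and Lum were not among the genes analysed. The part of these markers in the result was not tested, and in bulk RNA fewer cells of a type and less RNA per cell cannot be told apart.

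Of 24 tested genes of the ankyrin repeat domain (Ankrd) family, to which the targeted gene belongs, 12 were higher and 1 lower (50% and 4.17%), with a median difference of 0.24 and hairpin effects of -0.37 in 2D and -0.057 in 3D. A high level in 2D shGFP set 4 of the called members and a low level in 2D shAnkrd35 set 6. Ankrd11, a chromatin regulator, had 524 ± 17.6 and 355 ± 48.5 CPM in 2D and 312 ± 11.4 and 336 ± 13.2 CPM in 3D, a difference of 0.68 ± 0.097 (adjusted p = 9.37e-05). Ankrd27, an exchange factor of endosomal trafficking, had 0.53 ± 0.088, and Ankrd13b, a ubiquitin-binding endocytic protein, had 0.43 ± 0.079. Ankrd1 (chromosome 19, 36111961 to 36120099, minus strand), a stretch-responsive target of YAP, went the other way. Its level was 42.6, 45.8, 43.1 and 41.1 CPM in 2D shGFP, 44.7, 52.2, 46 and 46.9 CPM in 2D shAnkrd35, 6.84, 6.74, 6.64 and 6.29 CPM in 3D shGFP and 5.09, 5.005, 4.49 and 5.56 CPM in 3D shAnkrd35. The hairpin effect was called in 3D (-0.39 ± 0.071) and not in 2D (0.13 ± 0.071), a difference of -0.53 ± 0.1 (adjusted p = 0.000902). The largest differences in the family, Ankrd12 (1.26) and Ankrd26 (1.24), were in genes set by a low level in 2D shAnkrd35, the class whose size depended most on single libraries.

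The 577 genes set by a low level in 2D shGFP (4.68% of tested genes) formed the mirror image, since control cells in monolayer had less of their RNA than the other 3 groups. For 485 of them all 4 libraries lay outside the other 12. Igfbp3 (chromosome 11, 7206086 to 7213923, minus strand), a secreted protein that binds insulin-like growth factors (IGF), had 16.3, 16.9, 14.9 and 14.6 CPM in 2D shGFP and 38, 43.6, 45 and 47 CPM in 2D shAnkrd35. The 3D libraries had 51.7, 51.4, 47.3 and 51.1 CPM with shGFP and 47.1, 52, 51.2 and 45.4 CPM with shAnkrd35. With the hairpin the monolayer came close to the level in methylcellulose, where the hairpins overlapped. The effect was 1.46 ± 0.07 in 2D and -0.043 ± 0.07 in 3D, a difference of -1.51 ± 0.099 (adjusted p = 3.99e-08). Mt1 (chromosome 8, 94179082 to 94180327, plus strand), a metallothionein that binds zinc and copper, had 43, 41.8, 36 and 39.9 CPM in 2D shGFP and 52, 93.3, 100.2 and 87.5 CPM in 2D shAnkrd35, then 142, 147, 124 and 133 CPM in 3D shGFP and 96.9, 106, 107 and 82 CPM in 3D shAnkrd35. It rose with the hairpin in 2D (1.01 ± 0.16) and fell with it in 3D (-0.48 ± 0.16, adjusted p = 0.0346). Replicate 1 of 2D shAnkrd35 was the lowest of its group for Igfbp3 and Mt1, nearest to shGFP. Clec2d, a C-type lectin that natural killer cell receptors bind, had a difference of -1.69 ± 0.31 (adjusted p = 0.000688), with 1.95 to 2.86 CPM in 2D shGFP and 4.05 to 10.3 CPM in 2D shAnkrd35. Fam84a had -1.53 ± 0.20 (2.17 to 3.5 and 6.28 to 8.24 CPM, adjusted p = 2.95e-05).

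Of 40 genes of G2 phase and mitosis, all tested, 21 were lower in the difference and 2 higher (52.5% and 5%), and a low level in 2D shGFP set 13 of them. The median difference was -0.34, from hairpin effects of 0.24 in 2D and -0.047 in 3D. Cdc20 (chromosome 4, 118432901 to 118437352, minus strand), an activator of the anaphase-promoting complex, had 59.7, 56, 51.6 and 56.4 CPM in 2D shGFP and 87.2, 107, 109 and 102 CPM in 2D shAnkrd35. Levels in 3D were 118, 118, 119 and 118 CPM with shGFP and 116, 114, 124 and 106 CPM with shAnkrd35. The 3D groups overlapped, and the difference was -0.89 ± 0.092 (adjusted p = 3.53e-06). The mitotic kinesin Kif2c (-0.65 ± 0.071) and the kinase Plk1 (-0.65 ± 0.075) also had hairpin effects in 2D (0.63 and 0.65) and none called in 3D. The cyclin Ccnb2 went from 32.1 ± 1.5 to 48 ± 3.88 CPM in 2D and from 58.4 ± 2.37 to 46.3 ± 4.39 CPM in 3D, so that it rose in one and fell in the other (0.57 ± 0.07 and -0.34 ± 0.07, difference -0.91 ± 0.098). The 2 higher members were the proliferation marker Mki67 (1.01 ± 0.32) and the kinesin Cenpe (1.11 ± 0.39). Mki67 had 129.6, 305, 202 and 269.6 CPM in 2D shGFP and 143, 80.6, 87.6 and 118 CPM in 2D shAnkrd35, which overlapped through replicate 1 of each, with 3D libraries at 402 to 483 CPM.

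Promoters of mitotic genes often carry a CHR (cell cycle genes homology region) element, searched here as TTTGAA on both strands. Of the 40 members 34 had a promoter in the RefSeq table and 26 of those held the element (76.5%), against 14.2% of tested genes with a promoter and 17.9% of all promoters. It lay in 14 of the 17 matched members called lower and in 1 of the 2 called higher. A stretch from a member of each direction that lies outside annotated exons is shown, with the element in capitals, in the orientation of the gene.
Kif2c (chr4:117178834-117178911, minus strand): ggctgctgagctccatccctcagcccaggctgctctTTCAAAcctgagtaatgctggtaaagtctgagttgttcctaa
Mki67 (chr7:135716436-135716531, minus strand): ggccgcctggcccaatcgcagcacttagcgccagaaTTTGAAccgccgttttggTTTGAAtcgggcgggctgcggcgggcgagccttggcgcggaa
Both directions of the difference thus occur with the element in the promoter, and the letters alone say nothing of binding.

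Liver and pancreas secreted proteins, which a lung line is not known for, had 6 of 10 tested members lower and none higher (60%), of 28 genes in the list. The hairpin effect was called higher for 6 members in 2D and 5 in 3D and lower for none (median 1.08 in 2D and 0.70 in 3D). The summed level was 78.5 to 85.5 CPM in 2D shGFP, 159.6 to 191 CPM in 2D shAnkrd35, 204 to 214 CPM in 3D shGFP and 292 to 336 CPM in 3D shAnkrd35. The median difference was -0.74. Agt (chromosome 8, 124556534 to 124569706, minus strand), the precursor of angiotensin, had 1.93, 1.94, 1.62 and 1.47 CPM in 2D shGFP, 8.7, 7.61, 9.49 and 8.42 CPM in 2D shAnkrd35, 40.9, 42.3, 40.6 and 42.9 CPM in 3D shGFP and 93.7, 87.8, 100.5 and 91.2 CPM in 3D shAnkrd35. The effect was 2.25 ± 0.087 in 2D and 1.16 ± 0.087 in 3D, a difference of -1.09 ± 0.12 (adjusted p = 9.02e-06), although the rise in CPM was the larger in 3D. Rbp4, which carries retinol, had 38.3 ± 2.78 CPM in 2D shGFP against 88.9, 90.2 and 107 CPM in the other groups, and Cela1, an elastase, 9.66 ± 1.32 against 28, 23.1 and 35.1 CPM. Their differences were -0.96 ± 0.086 and -0.93 ± 0.13. Hp, the haemoglobin-binding haptoglobin, had -1.37 ± 0.22.

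Lysosome and autophagy genes had 18 of 35 members lower and 1 higher (51.4% and 2.86%), by small amounts (median -0.17). A low level in 2D shGFP set 7 of them and a high level in 2D shAnkrd35 set 5. The protective protein cathepsin A gene, Ctsa (chromosome 2, 164832873 to 164841032, plus strand), went from 112 ± 1.82 to 222 ± 13.6 CPM in 2D and from 183 ± 3.36 to 222 ± 6.81 CPM in 3D, a difference of -0.71 ± 0.06 (adjusted p = 4.75e-07). Its partner in a lysosomal complex, the sialidase Neu1, had -0.72 ± 0.12. Beta-glucuronidase Gusb (-0.50 ± 0.051) and alpha-mannosidase Man2b1 (-0.52 ± 0.055) were lower as well. The lysosomal membrane protein Scarb2 was the 1 higher member (0.63 ± 0.08), with 171, 116, 136 and 144 CPM in 2D shGFP, 2D shAnkrd35, 3D shGFP and 3D shAnkrd35.

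**Figure D4:**
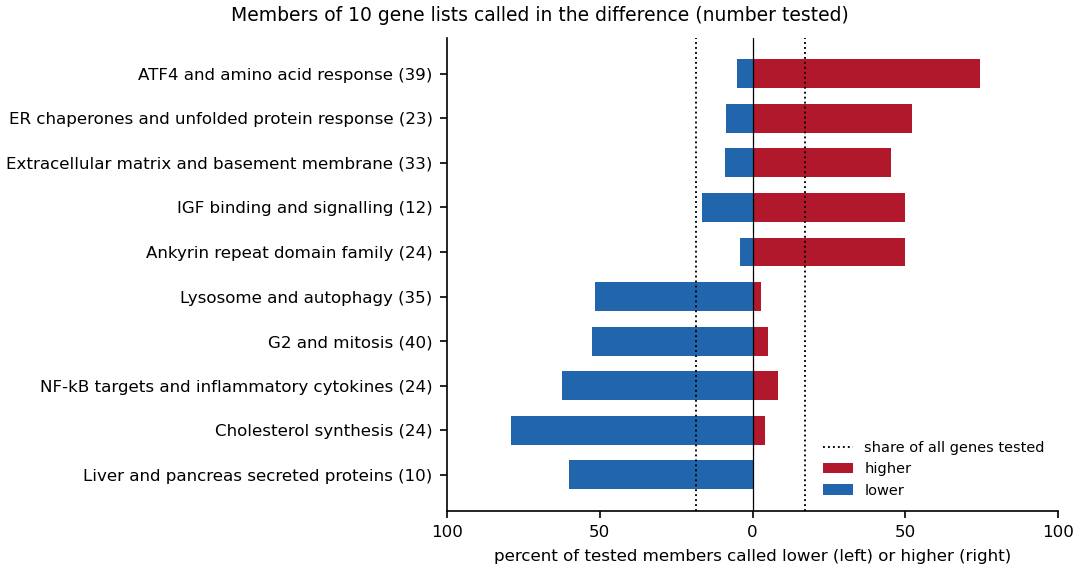
For the 5 lists with the largest share of members called higher and the 5 with the largest share called lower (number tested in brackets), bars give the percent of tested members called higher (red, to the right) and lower (blue, to the left). Dotted lines mark the shares over all 12320 genes, 17.1% and 18.6%. The ATF4 list reaches 74.4% higher and the cholesterol list 79.2% lower.

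The 547 genes set by a high level in 2D shAnkrd35 (4.44% of tested genes) had their highest level in monolayer with the hairpin, and 14 of them differed by 2-fold or more. Pde4b (chromosome 4, 102087543 to 102607259, plus strand), a phosphodiesterase that breaks down cyclic AMP, had 9.94, 9.01, 8.95 and 8.77 CPM in 2D shGFP and 20.8, 18.9, 22.3 and 22.3 CPM in 2D shAnkrd35. Its 3D libraries were at 12.4, 11.1, 12.3 and 12.8 CPM with shGFP and 11.7, 11.9, 12.3 and 11.8 CPM with shAnkrd35. The 4 libraries of 2D shAnkrd35 lay above the other 12, and the difference was -1.22 ± 0.1 (adjusted p = 3.82e-07). Gadd45b (chromosome 10, 80930073 to 80932204, plus strand), a stress-induced relative of Gadd45a, had 8.45, 8.48, 6.28 and 9.53 CPM in 2D shGFP and 12.7, 20.8, 18.6 and 22.1 CPM in 2D shAnkrd35, with 5.26 to 7.95 CPM in 3D. So these paralogues moved apart, Gadd45a falling and Gadd45b rising with the hairpin in monolayer (-1.39 and 1.16). The Ras-related GTPase Rasl11a (-1.26 ± 0.13) and the chondroitin sulfotransferase Chst15 (-1.20 ± 0.16) rose in 2D (0.98 and 0.85) and fell in 3D (-0.27 and -0.36).

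Cholesterol synthesis was the list with the largest share of lower members, 19 of 24 tested (79.2%), with 1 higher (4.17%). The median difference was -0.53, and the medians of the hairpin effects lay on either side of 0, at 0.33 in 2D and -0.17 in 3D. In 2D the effect was called higher for 15 members and lower for 3, and in 3D higher for 1 and lower for 10. The summed level was 1829 to 1934 CPM in 2D shGFP, 2028 to 2221 CPM in 2D shAnkrd35, 1679 to 1741 CPM in 3D shGFP and 1365 to 1451 CPM in 3D shAnkrd35, so the hairpins were ordered one way in monolayer and the other in methylcellulose. A high level in 2D shAnkrd35 set 7 of the 20 called members, and 9 had no setting group. Insig1 (chromosome 5, 28071363 to 28078662, plus strand), an SREBP target that holds SREBP in the ER, had 47.2, 48.4, 46.1 and 47.8 CPM in 2D shGFP and 73.2, 71.2, 69.3 and 70.2 CPM in 2D shAnkrd35. In 3D the level was 47.8, 42, 45.3 and 43 CPM with shGFP and 35.5, 37.8, 37.8 and 34.2 CPM with shAnkrd35. It rose with the hairpin in 2D (0.58 ± 0.049) and fell in 3D (-0.29 ± 0.049), without overlap in either, and the difference was -0.87 ± 0.069 (adjusted p = 2.6e-07).

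The enzymes Acat2 and Nsdhl were high in 2D shAnkrd35 alone. Acat2, which makes acetoacetyl-CoA for the first steps, had 63.6 ± 5.6 CPM there against 35.1, 34.6 and 33.5 CPM in 2D shGFP, 3D shGFP and 3D shAnkrd35 (difference -0.90 ± 0.089). Nsdhl, of the late demethylation steps, had 32.4 ± 1.95 CPM against 19, 17.9 and 16.1 CPM (-0.92 ± 0.10). The farnesyl diphosphate synthase Fdps had the lowest difference of the list (-1.17 ± 0.27). Hsd17b7 (chromosome 1, 169949535 to 169969241, minus strand), a sterol ketone reductase, reached its lower difference by another path. Its level was 75.6, 78.3, 75.5 and 68.7 CPM in 2D shGFP, 46.2, 42.6, 48.2 and 48.8 CPM in 2D shAnkrd35, 229, 218, 231 and 229.5 CPM in 3D shGFP and 73.9, 76.5, 74.3 and 79.6 CPM in 3D shAnkrd35. Here 3D shGFP stood alone above the rest, and the hairpin lowered Hsd17b7 in both growth types but more in 3D (-1.57 ± 0.051, against -0.68 ± 0.051 in 2D, difference -0.89 ± 0.072). The synthase Hmgcs1 (-0.75 ± 0.14) had a hairpin effect near 0 in 2D (0.046) and below 0 in 3D (-0.70). The sterol desaturase Sc5d was the 1 higher member (0.44 ± 0.14), and Srebf2, which encodes SREBP2, was not called (-0.15 ± 0.073).

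A sterol response element, searched as TCACNCCAC on both strands, was found in the promoter of 1 of the 17 matched members (5.88%), Hmgcs1, against 1.34% of tested genes with a promoter and 1.24% of all promoters. The stretch is shown because it is the only match, with the element in capitals and outside annotated exons.
Hmgcs1 (chr13:119690178-119690258, plus strand): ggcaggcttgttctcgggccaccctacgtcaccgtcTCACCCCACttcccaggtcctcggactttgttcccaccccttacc
The absence of these letters from the other 16 windows says nothing about SREBP, whose known sites vary in sequence.

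The 646 genes set by a low level in 2D shAnkrd35 (5.24% of tested genes) held 155 of the 317 genes with a difference of 2-fold or more in the higher direction. They were long and AT-rich, with a median exonic length of 7608 bases and a median GC content of 43.5%, against 4409 bases and 50.1% over all tested genes. For 361 of the 646, all 4 libraries of 2D shAnkrd35 lay outside the range of the other 12. The median SE of the difference in this class was 0.188, against 0.117 over all tested genes. The slope on GC content was positive in all 4 libraries of 2D shAnkrd35 and negative in all 8 of methylcellulose, and the class is given with trends in GC content and length removed together in the next paragraph. Eea1 (chromosome 10, 95940650 to 96045518, plus strand), an anchor of early endosomes, had 34.1, 108, 57.8 and 86.5 CPM in 2D shGFP and 22.8, 12.7, 18.2 and 21.2 CPM in 2D shAnkrd35. Methylcellulose libraries had 83.3, 81.6, 87.9 and 81.9 CPM with shGFP and 72, 78.5, 77.1 and 86.7 CPM with shAnkrd35. The groups in 2D did not overlap, but replicate 1 of 2D shGFP was the nearest to the hairpin group. The difference was 1.74 ± 0.38 (adjusted p = 0.00354). Calcrl, a receptor for adrenomedullin, had 5.47, 11.2, 7.99 and 10.8 CPM in 2D shGFP and 2.58, 1.9, 1.43 and 2.28 CPM in 2D shAnkrd35, and a difference of 1.68 ± 0.32 (adjusted p = 0.00106). Igip, the gene of an IgA-inducing peptide, had 2.29, 11.3, 5.23 and 7.55 CPM in 2D shGFP and 2.26, 1.38, 1.47 and 2.43 CPM in 2D shAnkrd35, which overlapped (1.79 ± 0.49, adjusted p = 0.0129). The zinc finger gene Zfp945 overlapped too, at 2.78 to 17.5 and 0.903 to 3.13 CPM, and its difference of 1.85 ± 0.63 (adjusted p = 0.0342) was no longer called under 13 of the other settings tried.

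The size of this class depended on single libraries and on the removal of trends with GC content and exonic length. It held 417 genes once both trends had been removed from each library, and they were not removed one at a time. Leaving out replicate 1 of 2D shGFP gave 1144 genes, replicate 1 of 2D shAnkrd35 gave 988, and replicates 2 and 3 of 2D shAnkrd35 gave 395 and 419. After removal of the trend Eea1, Calcrl and Igip were still called higher. For comparison, the 428 genes high in 2D shGFP had a median GC content of 49.4%, close to the value over all genes. Their median exonic length was 6269 bases, above the 4409 bases over all tested genes. The genes low in 2D shGFP and those high in 2D shAnkrd35 were shorter, with medians of 3270.5 and 3250 bases. They were also richer in GC, with medians of 52.1% and 53.5%, against 50.1% over all tested genes.

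In methylcellulose the 167 genes set by a high level in 3D shGFP (1.36% of tested genes) had as their 4 leading genes Nr4a1, Egr3, Cxcl1 and Ifitm3. Nr4a1 (chromosome 15, 101254269 to 101274795, plus strand), an immediate early nuclear receptor, had 27.7, 34.3, 25.9 and 22.8 CPM in 2D shGFP and 44.9, 60.01, 57.9 and 48.4 CPM in 2D shAnkrd35. In methylcellulose the values were 129, 124, 135 and 108 CPM with shGFP and 55.6, 60.3, 51.3 and 53.1 CPM with shAnkrd35. The hairpin raised Nr4a1 in monolayer (0.94 ± 0.12) and lowered it in methylcellulose (-1.17 ± 0.12), so that both shAnkrd35 groups overlapped while the shGFP groups stood far apart. Its difference of -2.10 ± 0.16 (adjusted p = 3.82e-07) had the largest size in the 8 classes among genes averaging at least 5 CPM. Egr3 (chromosome 14, 70077203 to 70082614, plus strand), an immediate early zinc finger factor, had 25.4, 23.2, 28.7 and 21.7 CPM in 3D shGFP and 5.83, 6.74, 4.7 and 4.68 CPM in 3D shAnkrd35, against 2.79 to 4.87 and 1.78 to 3.77 CPM in 2D with shGFP and shAnkrd35. It fell with the hairpin in both, more in 3D (difference -1.64 ± 0.28, adjusted p = 0.00045). The interferon-induced membrane protein Ifitm3 was at 12.7 ± 0.886 CPM in 3D shGFP and at 6.26, 6.35 and 4.21 CPM in 2D shGFP, 2D shAnkrd35 and 3D shAnkrd35 (difference -1.57 ± 0.24). Over 24 tested immediate early genes 8 were lower and 2 higher (33.3% and 8.33%, median -0.35). Fos (-1.33 ± 0.57) was not called, and Egr1 (-0.025), Jun (-0.032) and Ier2 (-0.17) were not called either.

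NF-kB targets and inflammatory cytokines had 15 of 24 tested members lower and 2 higher (62.5% and 8.33%). The median difference was -0.44, with hairpin effects of 0.32 in 2D and -0.27 in 3D. The effect was called higher for 14 and lower for 7 in 2D, and higher for 4 and lower for 14 in 3D. A low level in 2D shGFP set 4 of the called members, a high level in 3D shGFP set 2, and 9 had no setting group. Ccl2 (chromosome 11, 82035571 to 82037453, plus strand), a monocyte chemokine, had 3.54, 4.14, 3.28 and 3.09 CPM in 2D shGFP and 4.14, 5.52, 5.39 and 5.94 CPM in 2D shAnkrd35. The 3D libraries had 50.8, 49.4, 51.2 and 43.3 CPM with shGFP and 22.4, 22.4, 23.9 and 24 CPM with shAnkrd35. Its difference was -1.63 ± 0.15 (adjusted p = 1.26e-06), and its neighbour on chromosome 11, the chemokine Ccl7, was alike (-1.46 ± 0.20, 1.26, 1.79, 11.7 and 5.92 CPM). Cxcl1 (chromosome 5, 90891241 to 90893115, plus strand), which attracts neutrophils, had 8.61, 11.5, 7.04 and 6.23 CPM in 2D shGFP, 6.86, 15, 18.9 and 15.7 CPM in 2D shAnkrd35, 21.5, 23.4, 21.8 and 19.7 CPM in 3D shGFP and 10.9, 13.1, 10.6 and 11.2 CPM in 3D shAnkrd35. Its monolayer groups overlapped through replicate 1 of 2D shAnkrd35 and replicate 2 of 2D shGFP, and the difference was -1.61 ± 0.35 (adjusted p = 0.00347).

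Other members of that list reached a lower difference from the monolayer side. Il33, an alarmin cytokine kept in the nucleus, rose with the hairpin in both, by 2.37 ± 0.095 in 2D (1.62 to 8.73 CPM) and by 1.08 ± 0.095 in 3D (7.85 to 16.7 CPM), a difference of -1.29 ± 0.13 (adjusted p = 4.06e-06). Nfkbia (chromosome 12, 55489410 to 55492647, minus strand), the inhibitor that NF-kB itself induces, had 32.2, 30.7, 28.6 and 33.7 CPM in 2D shGFP, 38.4, 47, 47.3 and 46.4 CPM in 2D shAnkrd35, 57.7, 55.6, 55.9 and 57.1 CPM in 3D shGFP and 48.6, 46.8, 50.5 and 41.3 CPM in 3D shAnkrd35. It rose with the hairpin in 2D (0.51 ± 0.074) and fell in 3D (-0.28 ± 0.074), a difference of -0.79 ± 0.10 (adjusted p = 4.17e-05). The 2 higher members were Ptgs2 (0.48), which makes prostaglandins, and Tnfaip2 (0.43). The NF-kB subunits Rela (0.032), Nfkb1 (0.095) and Relb (-0.026) were not called. Of 13 macrophage markers 3 were tested and 2 (66.7%) were lower (Cd68, -1.07, and Cd14, -0.80), against 18.6% of all genes. Cd68 averaged only 3.89 CPM. The summed level of the 3 was 41.1 to 42.5 CPM in 2D shGFP, 78.8 to 85.5 CPM in 2D shAnkrd35, 129 to 139 CPM in 3D shGFP and 151 to 168 CPM in 3D shAnkrd35. Ptprc, Adgre1, Csf1r and Tyrobp, which define macrophages, were not among the genes analysed, and the part of macrophages in the result was not tested.

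**Figure D5:**
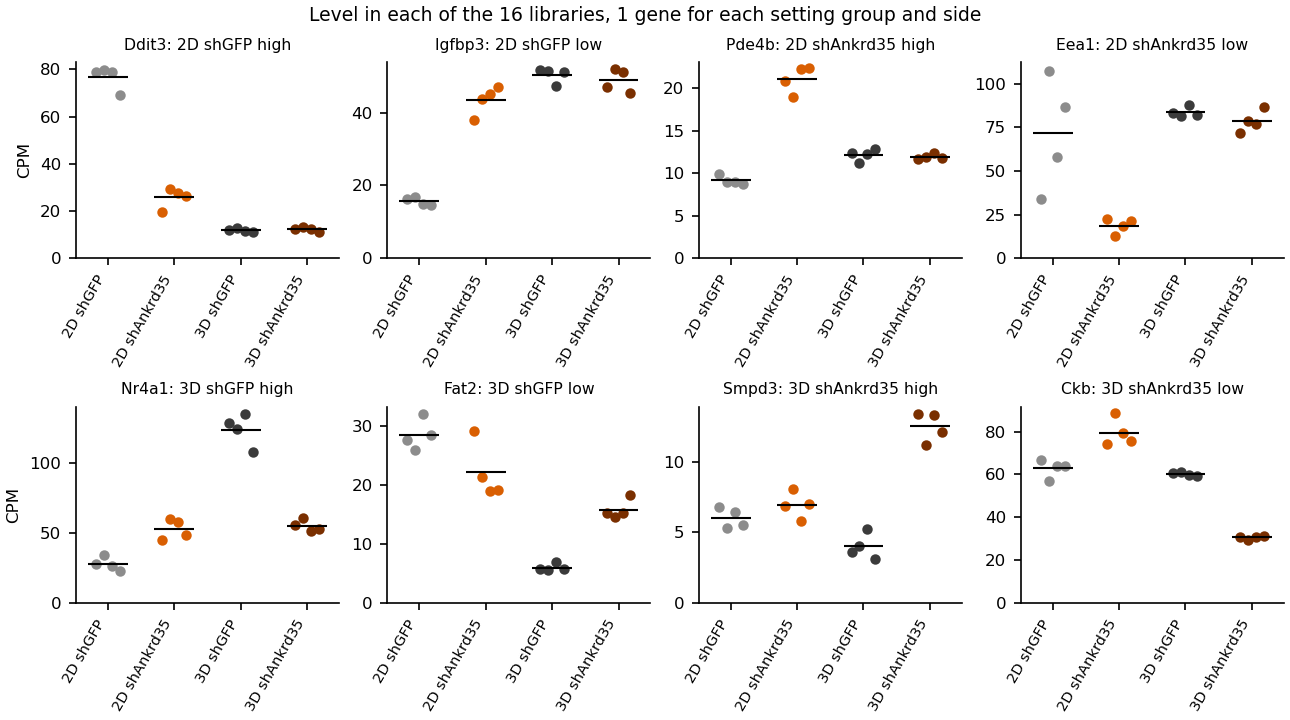
CPM (y axis, linear, from 0) of 8 genes in each of the 16 libraries, with 1 point per library in replicate order, a line at the group mean and the 4 groups on the x axis. Each panel names the group that sets the difference and its side. In 7 panels the 4 points of the named group lie apart from the other 12 points by a clear gap, and in the Eea1 panel replicate 1 of 2D shGFP, at 34.1 CPM, comes near the 2D shAnkrd35 points.

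The 153 genes set by a low level in 3D shGFP (1.24% of tested genes) had less of the RNA in methylcellulose with the control hairpin than in any other group. Fat2 (chromosome 11, 55250609 to 55336564, minus strand), a giant atypical cadherin, had 27.6, 25.8, 31.9 and 28.5 CPM in 2D shGFP and 29.2, 21.3, 18.9 and 19.1 CPM in 2D shAnkrd35. Levels in 3D were 5.62, 5.46, 6.91 and 5.75 CPM with shGFP and 15.2, 14.5, 15.2 and 18.2 CPM with shAnkrd35. The effect of methylcellulose on Fat2 was -2.25 with shGFP and -0.47 with shAnkrd35 on the log2 scale, and the difference was 1.78 ± 0.17 (adjusted p = 2.29e-06). Sorcs2 (chromosome 5, 36017180 to 36398139, minus strand), a sorting receptor of the VPS10 family, had the largest difference of this class, 1.95 ± 0.16 (adjusted p = 3.82e-07). It was at 2.48, 2.38, 2.28 and 2.32 CPM in 3D shGFP and 7.5, 7.6, 7.37 and 8.52 CPM in 3D shAnkrd35, on either side of the 2D libraries at 4.23 to 6.64 CPM. The chloride channel protein Clic5 (1.35 ± 0.15) and the phospholipase A2 receptor Pla2r1 (1.13 ± 0.21) were also lowest in 3D shGFP, at 3.92 ± 0.207 and 3.09 ± 0.361 CPM.

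IGF binding and signalling genes were spread over several setting groups. Of 12 tested, 6 were higher and 2 lower (50% and 16.7%), with a median difference of 0.33, which fell to 0.051 once the trend with GC content and length had been removed. The binding protein Igfbp4 (chromosome 11, 99041244 to 99054392, plus strand) was low in 3D shGFP. It had 1696, 1436, 1648 and 1461 CPM in 2D shGFP, 1629, 1701, 1582 and 1601 CPM in 2D shAnkrd35, 639, 644, 617 and 634 CPM in 3D shGFP and 1106, 989, 1059 and 951 CPM in 3D shAnkrd35. The hairpin raised it in 3D (0.69 ± 0.058) and the effect in 2D was not called (0.065 ± 0.058), a difference of 0.63 ± 0.082 (adjusted p = 3.55e-05). The RNA-binding protein Igf2bp1 rose with the hairpin in 3D too (4.38 to 7.57 CPM, difference 0.58 ± 0.13), far below its monolayer level of 25.7 and 29.6 CPM. Igfbp6 was set by a low level in 2D shAnkrd35 (0.44 ± 0.091), and Igfbp3, by a low level in 2D shGFP, had the opposite sign (-1.51). The binding proteins thus did not move as a family.

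The 86 genes set by a high level in 3D shAnkrd35 (0.698% of tested genes) formed the smallest class, and 67 of them had all 4 libraries outside the other 12. Smpd3 (chromosome 8, 106252548 to 106337988, minus strand), the neutral sphingomyelinase 2 that makes ceramide, had 13.4, 11.2, 13.3 and 12.1 CPM in 3D shAnkrd35 and 3.62, 4.01, 5.21 and 3.09 CPM in 3D shGFP. In 2D it had 6.8, 5.29, 6.42 and 5.52 CPM with shGFP and 6.86, 8.04, 5.81 and 7.03 CPM with shAnkrd35, which overlapped. The difference was 1.45 ± 0.20 (adjusted p = 6.06e-05). Map3k1 (chromosome 13, 111746428 to 111808993, minus strand), a kinase upstream of JNK, had 92.8, 89.4, 89.96 and 103 CPM in 3D shAnkrd35, 70.03, 62.4, 69 and 64.9 CPM in 3D shGFP, 54.1, 70.1, 68.3 and 75.5 CPM in 2D shGFP and 68.4, 44.9, 41.1 and 55.2 CPM in 2D shAnkrd35. Its rise with the hairpin in 3D was small (0.49 ± 0.13), and a fall of like size in 2D (-0.37 ± 0.13) made up the rest of the difference of 0.86 ± 0.19 (adjusted p = 0.00292). The N-glycan branching enzyme Mgat4a (10.9 ± 1.23 CPM in 3D shAnkrd35, difference 1.15 ± 0.20) and the interferon-inducible Mndal (11.4 ± 0.634 CPM, 0.86 ± 0.19) completed the leading 4. Mndal lies in a cluster of near-identical p200 family genes, so its reads are uncertain.

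The 156 genes set by a low level in 3D shAnkrd35 (1.27% of tested genes) had their lowest level in methylcellulose with the hairpin. Ckb (chromosome 12, 111669361 to 111672338, minus strand), the brain-type creatine kinase that buffers ATP, had 66.9, 56.8, 63.9 and 64.1 CPM in 2D shGFP and 74, 88.8, 79.5 and 75.6 CPM in 2D shAnkrd35. Its 3D libraries were at 60.9, 61.1, 59.8 and 59.4 CPM with shGFP and 30.8, 29.5, 30.7 and 31.2 CPM with shAnkrd35. The effect was 0.34 ± 0.058 in 2D and -0.98 ± 0.058 in 3D, opposite and both called, and the difference was -1.32 ± 0.082 (adjusted p = 1.87e-08). Tns4 (chromosome 11, 99065678 to 99089306, minus strand), a tensin of focal adhesions, had 46, 49, 50.9 and 53.3 CPM in 3D shAnkrd35, against 96.6 to 107 CPM in 2D shGFP, 93 to 106 CPM in 2D shAnkrd35 and 101 to 116 CPM in 3D shGFP. Its other 3 groups overlapped, so the whole difference of -1.08 ± 0.079 (adjusted p = 1.12e-07) came from 1 group. Zfp503, a zinc finger repressor, was at 13.6 ± 1.05 CPM in 3D shAnkrd35 and at 20.1, 25.2 and 26.3 CPM in 2D shGFP, 2D shAnkrd35 and 3D shGFP (difference -1.27 ± 0.11). Sh3rf2, a RING finger protein with SH3 domains, fell with the hairpin in both growth types, with effects of -0.53 ± 0.097 in 2D and -1.64 ± 0.097 in 3D (difference -1.11 ± 0.14).

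In 354 genes the hairpin effects were both called and opposite, 149 with a higher difference and 205 with a lower one. Those described were chosen by the smallest p of this same difference, so their values are a description of the choice. Tenm4 (chromosome 7, 96171246 to 96911093, plus strand), a teneurin that joins cells across their contacts, had 83, 82.4, 98 and 82.6 CPM in 2D shGFP and 21.9, 15, 17.1 and 16 CPM in 2D shAnkrd35. In 3D the level was 3.09, 2.42, 2.89 and 3.36 CPM with shGFP and 5.38, 5.79, 6.03 and 5.66 CPM with shAnkrd35. All 4 groups were separate, and the difference of 3.26 ± 0.16 (adjusted p = 3.38e-09) joined an effect of -2.31 in 2D to one of 0.95 in 3D. Klf4 (chromosome 4, 55527143 to 55532466, minus strand), a Krüppel-like transcription factor of epithelia, showed a near-symmetric crossing. Its level was 148, 148, 145 and 141 CPM in 2D shGFP, 90.8, 88.9, 82.3 and 97.5 CPM in 2D shAnkrd35, 48.7, 44.9, 46.1 and 45.6 CPM in 3D shGFP and 75.8, 75.4, 78.2 and 70.7 CPM in 3D shAnkrd35. The effects were -0.70 ± 0.05 and 0.70 ± 0.05, a difference of 1.39 ± 0.071 (adjusted p = 3.38e-09), and the hairpin narrowed the gap between growth types. Enpp2 (chromosome 15, 54838901 to 54952892, minus strand), which encodes autotaxin, the enzyme that makes lysophosphatidic acid, was its mirror image, with 12.3, 12.7, 11.6 and 13 CPM in 2D shGFP, 20.4, 19.9, 21.4 and 20.4 CPM in 2D shAnkrd35, 113, 112, 117 and 121 CPM in 3D shGFP and 64.8, 68.5, 72.1 and 74.7 CPM in 3D shAnkrd35. Here the effects were 0.72 ± 0.054 and -0.73 ± 0.054 (difference -1.45 ± 0.076, adjusted p = 3.55e-09).

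Not every crossing narrowed the gap. Mmp28 (chromosome 11, 83440768 to 83463071, minus strand), the metalloproteinase epilysin, had 42.8, 39.7, 46.8 and 39.6 CPM in 2D shGFP and 49.5, 47.9, 47.8 and 51.7 CPM in 3D shAnkrd35, against 31.5, 32.8, 31.8 and 31.5 CPM in 2D shAnkrd35 and 28.9, 29.97, 30.6 and 30.4 CPM in 3D shGFP. Its growth effect changed sign with the hairpin, from -0.49 with shGFP to 0.62 with shAnkrd35 (difference 1.11 ± 0.076, adjusted p = 5.39e-08). Padi4, which converts arginine in proteins to citrulline, crossed in the reverse way, with 9.99 ± 0.696 and 14.1 ± 0.435 CPM in 2D and 21.4 ± 1.26 and 8.87 ± 0.712 CPM in 3D (difference -1.76 ± 0.10, adjusted p = 1.19e-08). Myrf, a membrane-bound transcription factor, was lowered by methylcellulose with both hairpins, from 157 to 17.5 CPM with shGFP and from 142 to 36.7 CPM with shAnkrd35. Its opposite effects were unequal, -0.15 ± 0.048 in 2D and 1.06 ± 0.048 in 3D (difference 1.21 ± 0.068, adjusted p = 7.82e-09).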

How the data were processed

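RNA of 16 libraries of LKR10 cells was sequenced by the authors and deposited as 1 table of log2 CPM with a prior count added. Reads were trimmed with Trimmomatic 0.38, aligned with STAR 2.5.1b to mm10 and normalised with edgeR, per the submitters' processing notes. Neither the counting program nor the annotation, use of strand or filter was given in these sources, so genes that overlap another or have near-identical copies are uncertain. From the deposited log2 CPM, whole reads were recovered for each gene and library (within 0.01 reads), and CPM without the prior was computed from them. Libraries held 13.82 to 28.72 M reads, which limits the precision of scarce genes. In 386 gene symbols, characters that had been replaced by dots or given a leading X were restored by matching to the annotation, and 12218 symbols matched the GENCODE M21 annotation while 103 did not. Every sample column was mapped to a sample by its label, and 0 columns belonged to no sample.

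Tests had been planned for counts or linear values, but the unit is log2, so limma 3.58.1 (R 4.3.3, statmod 1.5.0) was fitted to the deposited log2 CPM of all 4 groups, with an abundance trend and robust fitting. Genes needed 1 CPM in at least 4 libraries. P-values were adjusted over the 12320 genes by Benjamini and Hochberg, with 0.05 as the threshold. Errors are SE for differences and SD for levels. The fit was tested on simulated data.

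The members and the 49 gene lists were chosen with earlier results of these data known. Named genes were the 4 with the largest difference in each of the 8 classes (mean of at least 5 CPM, unnamed models left out), the 4 opposite genes each way with the smallest p, and the 4 members with the smallest p of the 5 lists each way with the largest called share among lists of at least 8 tested members. Other genes named were chosen after their values were seen. Promoters of 300 bases and their coordinates are from RefSeq (GRCm38.p6). Alternatives were other normalisations, priors, filters, weights, a replicate block, removal of GC and length trends, and leaving out libraries.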

Additional observations from a re-analysis of the deposited data

Results flagged for a closer look

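The gap of the highest or lowest library to its nearest neighbour, as a share of the group's range, was compared with Dixon's 95% critical value for 4 samples in 308 tests over 77 named genes. It was above that value in 16, where chance gives about 1 in 20 groups. Replicate 1 of 2D shAnkrd35 accounted for 5 of them, with Mgat4a (0.971), Sel1l (0.922) and Lamc1 (0.854) highest there and Nfkbia (0.907) and Ifitm3 (0.895) lowest there. In 2D shGFP, Ddit3 was lowest in replicate 4 (0.924), Vldlr lowest in replicate 1 (0.86), Tenm4 highest in replicate 3 (0.96), Ccnb2 highest in replicate 4 (0.844) and Kif2c highest in replicate 1 (0.913). In 3D shGFP, Igfbp3 was lowest in replicate 3 (0.865) and Hsd17b7 lowest in replicate 2 (0.853). In 3D shAnkrd35, Rasl11a (0.904) and Sh3rf2 (0.857) were highest in replicate 3, Clic5 in replicate 4 (0.898) and Cela1 in replicate 2 (0.892).

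Of the genes whose hairpin effects were called in opposite directions in 2D and 3D, 8 are given for that reason. They were chosen by the smallest limma p of the difference itself, so the values are a description and no further test of it. Tenm4 had 3.26, Klf4 1.39, Myrf 1.21 and Mmp28 1.11, each falling with the hairpin in monolayer and rising in methylcellulose. Padi4 had -1.76, Enpp2 -1.45, Ckb -1.32 and Insig1 -0.87, each the other way.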

How the results depend on the processing

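Of 326 counts of genes called or set by a group, 299 were within 1.5 times the first count under the alternatives tried. None of the 77 genes chosen by the naming rule changed direction. Of 2156 values for these 77 genes, 14 lost the threshold, 13 of them Zfp945 and 1 Mndal. The other genes named in the text were not followed one by one under the alternatives. Of 280 medians of the 10 described lists, 31 in 9 lists moved by more than the SD between replicates, and all kept their sign. Medians ranged over the alternatives from 0.57 to 0.69 for the ATF4 list, 0.29 to 0.39 for ER chaperones, 0.24 to 0.37 for extracellular matrix, 0.051 to 0.42 for IGF and 0.19 to 0.33 for the Ankrd family. They were -0.55 to -0.50 for cholesterol synthesis, -0.51 to -0.35 for NF-kB targets, -0.47 to -0.29 for G2 and mitosis and -0.25 to -0.15 for lysosome and autophagy. Leaving out each library in turn gave 1579 to 2852 higher and 1823 to 2897 lower genes. Genes low in 2D shAnkrd35 then numbered 395 to 1144 and genes high there 397 to 812. For 2D shGFP the high class held 363 to 559 and the low class 484 to 665. For 3D shGFP they held 130 to 166 and 115 to 180, for 3D shAnkrd35 65 to 108 and 126 to 173, and 1288 to 2098 genes had no setting group. Without both 2D libraries numbered 1, 3358 genes were higher, 871 were high and 1421 low in 2D shAnkrd35. With trends in GC content and length removed, 417 genes were low in 2D shAnkrd35, and 395 with the replicate block as well. With a gap of 2 times the range, 2D shGFP set 193 genes by a high and 288 by a low level, 2D shAnkrd35 294 and 287, 3D shGFP 75 and 66, 3D shAnkrd35 34 and 66, and 3104 were unset. With a difference of at least 1 (log2), they were 32 and 45, 14 and 155, 20 and 20, and 9 and 12, with 160 unset, by construction fewer. Other causes were not tested. Same-numbered libraries had correlations of their deviations from -0.483 to 0.206, and the numbers were not taken to pair them. In 5 of the 6 pairs of groups some or all same-numbered libraries were at or under 0.1. Exceptions within these were replicate 4 of 2D shGFP with 2D shAnkrd35 (0.206) and of 3D shGFP with 3D shAnkrd35 (0.153). Others were replicate 2 of 2D shAnkrd35 with 3D shGFP (0.190) and replicate 3 of 2D shAnkrd35 with 3D shAnkrd35 (0.193). In the remaining pair, 2D shGFP with 3D shAnkrd35, all 4 were over 0.1 (0.119 to 0.186). The replicate block gave 1891 higher and 2121 lower genes, 1865 and 2079 of them among those first called. Removal of the trends in GC content and length gave 2119 and 2480, with fewer, 1645 and 1779, among those first called.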

Other observations

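Among all genes tested, 17.1% were higher in the difference and 18.6% lower. The difference followed GC content and exonic length across genes (Spearman's rho -0.30 and 0.37). The lists of this section were not recounted with those trends removed. Cytosolic and mitochondrial tRNA synthetases charge tRNAs with amino acids and are described apart. Of 20 cytosolic enzymes 13 were higher in the difference and 1 (Qars, -0.31) was lower, with a median of 0.47, and Eprs (1.23 ± 0.12), Aars (0.80 ± 0.086) and Nars (0.74 ± 0.053) led them. Of 16 mitochondrial enzymes 1 was higher (Mars2, 0.53 ± 0.12) and none lower, with a median of -0.089. Their median hairpin effects in 2D were -0.40 and 0.15. Nuclear genes of oxidative phosphorylation had 21 of 42 members lower (50%) and none higher (median -0.26), among them the cytochrome oxidase subunits Cox6b1 (-0.66 ± 0.20) and Cox7a2 (-0.64 ± 0.16). A high level in 2D shAnkrd35 set 9 of these and a low level in 2D shGFP set 6. Genes encoded in mitochondrial DNA had 4 of 12 higher (33.3%) and none lower (median 0.39), with mt-Nd6 at 0.52 ± 0.11 and mt-Nd5 at 0.50 ± 0.12. The most abundant, mt-Co1 (mean 9386 CPM), rose alike with the hairpin in 2D and 3D (0.35 and 0.34) and was not called (-0.012). mt-Atp6, mt-Co2 and mt-Co3 were scarce, at means of 2.67, 6.61 and 3.77 CPM. These means leaned on replicate 3 of 3D shAnkrd35, at 15.3, 30.2 and 15.6 CPM. No other library exceeded 2.97, 9.95 and 6.09 CPM. That replicate had the fewest reads of the series (13.82 M) and was also far above its group for Col1a1, given above. Reads from mitochondrial genes made up 2.89 to 3.26% of a library in 3D shAnkrd35 and 2.35 to 2.62% in 3D shGFP. In 2D the shares were 2.00 to 2.13% with shAnkrd35 and 1.69 to 2.10% with shGFP. The part of these shares in the differences was not tested.

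Over all genes tested 17.1% were higher and 18.6% lower, and in the 4 lists that follow the share lower (14.3% to 23.5%) was near the latter. Of 21 hypoxia response genes 9 were higher (42.9%) and 3 lower (14.3%). Ero1l, an oxidase of the ER, had 1.57 ± 0.096 and Epas1, which encodes HIF-2 alpha, 0.84 ± 0.11, while the secreted Stc1 had -1.03 ± 0.098. Circadian clock genes had 8 of 19 higher (42.1%) and 4 lower (21.1%). The activator Clock had 1.24 ± 0.34, the repressor Cry1 0.87 ± 0.13 and the repressor Per1 -0.55 ± 0.081. Clock was set by a low level in 2D shAnkrd35, the class whose size depended most on single libraries. Its 2D groups overlapped, with replicate 1 at 36.5 CPM in shGFP and 38.6 CPM in shAnkrd35. Enzymes of serine synthesis and folate metabolism had 9 of 20 higher (45%) and 3 lower (15%), with Mthfd2 (0.77 ± 0.073) and Phgdh (0.53 ± 0.081) higher and Shmt1 (-0.41 ± 0.061) lower. Mthfd2 and Phgdh are also members of the ATF4 list and were counted there. Of 17 gastric and intestinal lineage genes 4 were called each way (23.5% each), close to the shares over all genes. The intestinal factors Cdx2 (-1.44 ± 0.12) and Hnf4a (-1.01 ± 0.17) were lower, and the mucin Muc5ac (1.29 ± 0.22) and the factor Sox2 (1.28 ± 0.30) were higher. Hnf4a and Muc5ac both rose with the hairpin in 2D (2.32 and 0.94) and in 3D (1.31 and 2.23). Cdx2 rose in 2D (0.71) and fell in 3D (-0.74), and Sox2 did the reverse (-0.57 and 0.71). Sox2 averaged only 1.48 CPM, and its libraries overlapped between hairpins in both growth types.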
